A study of Mus musculus with 6 samples.

Results

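The control kidney at E14.5, embryonic day of development in the mouse, was described from 3 of the 6 arrays of a study of Sall1 deletion: the arrays titled WT5, WT2 and wt/flox2. They were chosen by their labelled genotype and title alone, and the 3 knockout arrays appear below only where a value on them bears on a control value. The study deleted Sall1, a zinc finger transcription factor of nephron progenitors, either in those progenitors or inducibly, and compared whole-kidney RNA with controls. WT5 and WT2 were read as controls of the Six2Cre line, in which Cre is driven by a promoter of nephron progenitors, and wt/flox2 as the control of the inducible Sall1CreER line, because their titles differ in style and the design text names both lines. The labels give all animals as a hybrid strain of 129 and C57BL/6 with a floxed Sall1 line, and all kidneys as taken at E14.5. The title of wt/flox2 names 1 wild-type and 1 floxed allele and no CreER. No source used here says whether WT5 and WT2 carried Cre or a floxed allele. The treatment text places tamoxifen at E12.5 without limiting it to 1 line, so all 3 controls may have been exposed. It is also not stated whether each array is a separate embryo, litter or pool, so the spread between arrays may be partly technical.

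At this stage the mouse kidney is built by reciprocal growth of 2 tissues. The ureteric bud branches into the collecting duct tree, while the cap mesenchyme around each tip renews itself and, on Wnt signals, condenses into renal vesicles that pattern into podocytes, proximal tubule, loop of Henle and distal tubule. A Foxd1 stroma, an invading endothelium and circulating erythroid cells make up much of the rest, and maturation of tubule transport is still to come.

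Signal was read as the log2 of the background-subtracted spot intensity minus the array's own 75th percentile, called the level here. A level of 0 is thus the 75th percentile of probe signal. A gene was called on where its probe was well above background on all 3 control arrays, and off where none of its probes was on any of them. One probe represented each gene. Probes differ in how brightly they bind, so ranks and percentiles below order probe signal and not numbers of transcripts between genes. In whole-kidney RNA, fewer cells of a type and less RNA per cell cannot be told apart.

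Of 17235 named genes, 14563 (84.5%) were on in all 3 controls, 362 in 2, 431 in 1, and 1872 (10.9%) were off. Counted over probes, 80.4% were well above background on WT5, 80.2% on WT2 and 82.3% on wt/flox2, and no spot was saturated. The dimmest level called on was -7.87, -7.90 and -8.12 on these arrays, and the mean levels of the genes on in all 3 ran from -7.82 to 7.64. Their median range, the highest minus the lowest of the 3 levels, was 0.43. In 1420 genes (9.75%) the range reached at least 2-fold, and in 78 genes at least 8-fold. The counts of list genes below that were on, or that reached 2-fold, stand beside these 84.5% and 9.75% of all genes. The range narrowed with brightness: its median was 0.59 in the dimmest quintile of the genes, of which 20.1% reached 2-fold, and 0.32 in the brightest quintile, of which 1.68% did.

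The arrays were not equally far apart. WT5 lay on slide 1 together with the knockout KO7, and WT2 and wt/flox2 lay on slide 2. The median absolute difference across genes was 0.10 between WT2 and wt/flox2, 0.35 between WT5 and WT2 and 0.35 between WT5 and wt/flox2. Genes at least 2-fold apart numbered 280 (1.92%) between WT2 and wt/flox2, 1043 (7.16%) between WT5 and WT2 and 945 (6.49%) between WT5 and wt/flox2. WT2 and wt/flox2, from different lines but 1 slide, were thus closer than WT5 and WT2 of the same line. The 193 probes printed in 10 spots had a median SD of 0.05 between spots of an array and of 0.21 between the controls. Of 419 genes at least 2-fold higher on WT5 than on both other controls (2.88%), 224 were also at least 2-fold higher on KO7 than on KO9, its counterpart on slide 2, or 53.5%, against 2.63% of all genes. Of 194 genes at least 2-fold lower on WT5 (1.33%), 62 were also lower on KO7 by that margin, or 32.0%, against 3.16% of all genes. The median of the 8 spike-in probes that were on in all 6 arrays was lower on WT5 than on WT2 by 2.68-fold and lower on KO7 than on KO9 by 2.54-fold, relative to the 75th percentile. Among the controls WT5 is alone on its slide, so what is particular to that sample and what belongs to the slide cannot be told apart.

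**Figure D1:**
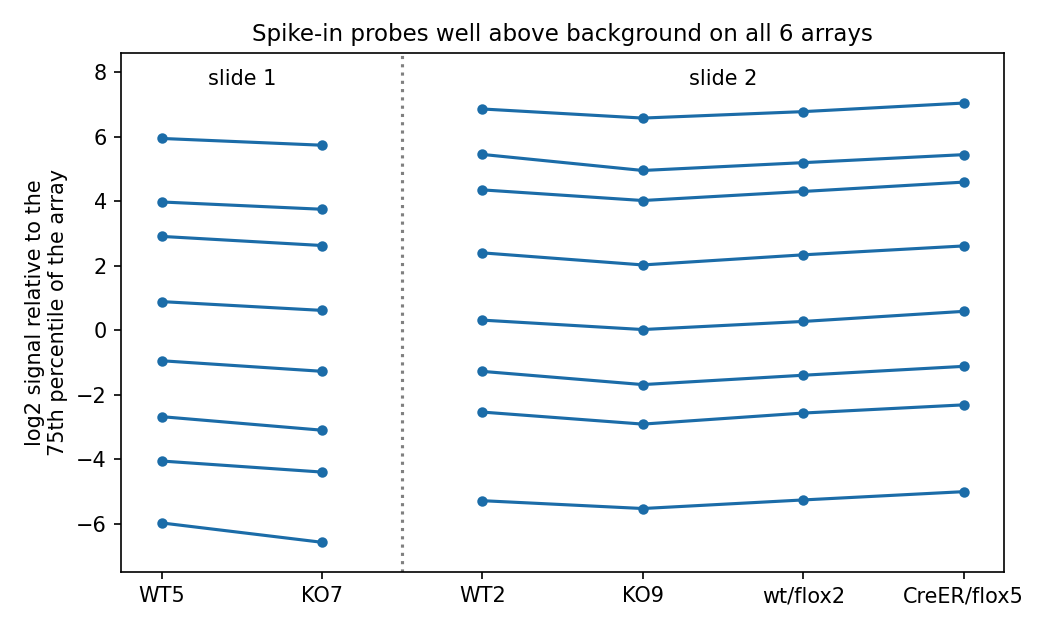
Level of the 8 spike-in probes that were well above background on all 6 arrays (vertical axis, log2 signal relative to the 75th percentile; each line 1 probe, not joined across slides). All 8 points lie in the same order on every array shown, and the median is 1.42 lower on WT5 than on WT2 and 0.05 higher on WT2 than on wt/flox2.

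The brightest probes belonged to the translation machinery. Ranked by the lowest of the 3 levels, the first was Lars2, the mitochondrial leucyl-tRNA synthetase, at 7.75 on WT5, 7.62 on WT2 and 7.55 on wt/flox2. Rps18 followed at 7.54, 7.57 and 7.52. Among the next were Rps23, Rps14 and Rpl5, also ribosomal proteins, and the histone gene H2ac1 at 7.12, 7.17 and 7.01. All 78 measured Rpl and Rps genes were on, with a median range of 0.26. So were the 39 proteasome subunits, the 78 mitochondrial ribosomal proteins and the 35 complex I subunits. At the other end, 490 of 871 olfactory receptor genes were off and 247 were on, and 79 of 125 vomeronasal receptors were off. These receptors serve smell and pheromone sensing, and the share of olfactory receptors called on was 28.4%. Those that were on were dim, at a median percentile of 6.0 among genes on in all 3. A call of on at such dim levels is therefore weak evidence that a gene is expressed in the kidney.

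All 16 proliferation genes were on, none with a 2-fold range. Their median range was 0.29, near the 0.32 of the brightest quintile of all genes, of which 1.68% reached 2-fold, and their median level was 3.34. The proliferation antigen Mki67 stood at 4.91 on WT5, 5.16 on WT2 and 5.06 on wt/flox2, and the replication clamp Pcna at 4.93, 5.08 and 5.24. The survivin gene Birc5 had 4.96, 5.24 and 5.15. The DNA replication gene Mcm3, the widest of the list, was lower on WT5 at 2.00 than on WT2 at 2.44 and wt/flox2 at 2.47.

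**Figure D2:**
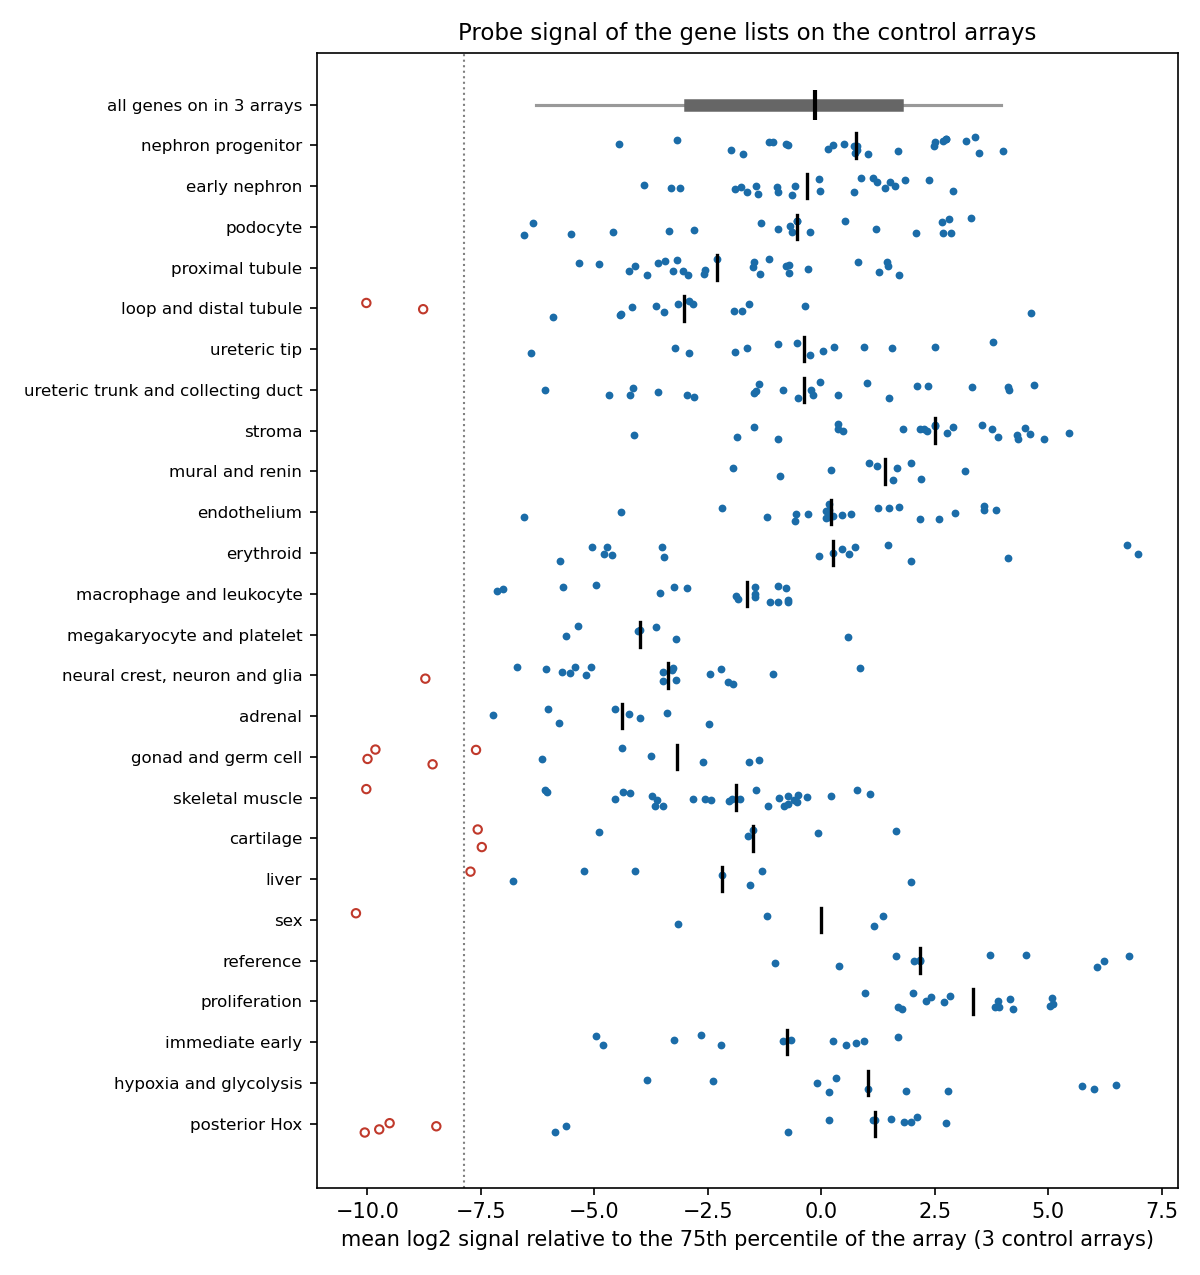
Mean level over the 3 control arrays (horizontal axis, log2 relative to the 75th percentile) of each measured gene of each list. Filled points are on in all 3 arrays, open points are not, black ticks are medians of the filled points, the bar at the top spans the middle 50% of all genes on in 3 arrays with a line from the 5th to the 95th percentile, and the dotted line at -7.87 is the dimmest level called on in WT5. The proliferation median is 3.34, the stroma median 2.50, the nephron progenitor median 0.76 and the loop and distal tubule median -3.03, beside -0.14 over all genes.

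Nephron progenitors, the self-renewing cap mesenchyme, were on throughout their list. All 26 measured genes were on in all 3 arrays (84.5% of all genes), with a median level of 0.76 and a median range of 0.39. A 2-fold range was reached by 3 of 26 (11.5%), beside 9.75% of all genes. The progenitor transcription factor Six2 stood at 0.54 on WT5, 0.91 on WT2 and 0.93 on wt/flox2. Osr1, which marks the lineage from intermediate mesoderm onward, was nearly constant at 0.72, 0.76 and 0.74. Wt1, required in progenitors and later in podocytes, had 2.48, 2.61 and 2.43. Rspo1, a secreted enhancer of Wnt signalling, was at 3.94, 4.05 and 4.01, so that the 3 arrays spanned 0.12. Among these 4 genes Six2 had the widest range, 1.31-fold.

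The coactivator Cited1, which marks the uncommitted progenitors, was one of the 3 progenitor genes with a 2-fold range, at 2.88 on WT5, 3.66 on WT2 and 3.90 on wt/flox2. Robo2, the Slit receptor that restricts Gdnf to the posterior mesenchyme, was high on WT5 at -1.09 and lower on WT2 at -2.18 and wt/flox2 at -1.90. Gdnf itself, the ligand that attracts the ureteric bud, was also highest on WT5, at -0.33 against -0.89 and -1.09, with less than a 2-fold range.

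Sall1, the deleted gene of the study, was on in each control at -1.38, -0.77 and -1.28, a mean of -1.14 (SD 0.33, n = 3). The knockout arrays KO7, KO9 and CreER/flox5 had -2.65, -2.00 and -4.06, all below the lowest control. The sources used here do not say whether its probe lies in the deleted stretch. The progenitor factor Eya1, a partner of Six2, had 2.95, 2.63 and 2.69.

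Early nephron genes, which come on as the cap condenses into vesicles and S-shaped bodies, were on in 24 of 24 cases with a median level of -0.31. Their median range of 0.65 was wider than the 0.43 of all genes, and 3 reached 2-fold. Wnt4, the signal that drives the mesenchyme to epithelium, had 0.82 on WT5, 1.52 on WT2 and 1.36 on wt/flox2. Lhx1, needed to pattern the vesicle, was at 2.15, 2.79 and 2.17, and Fgf8, which keeps nascent nephrons alive, at -0.66, -0.60 and -0.66. Of the 24, 13 were highest on WT2 (27.8% of all genes were), 10 on WT5 (37.4%) and 1 on wt/flox2 (34.7%).

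The Notch ligand Dll1 was at 0.63 on WT5, -0.14 on WT2 and -0.63 on wt/flox2, and the Notch target Hes5 was at 1.31, 1.21 and 0.11. Other genes of the same pathway had another order. Hey1, also a Notch target, was flat at 2.87, 2.97 and 2.90, and the receptor Notch2 was lowest on WT5 at 0.85, against 1.80 and 1.59. Irx3, a factor of the intermediate nephron segment, was high on WT5 at -2.25 and close together on WT2 and wt/flox2 at -4.75 and -4.74. On the knockout arrays Irx3 was also higher on slide 1, at -3.96 on KO7 against -5.53 on KO9.

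Podocyte genes, of the cells that form the glomerular filter, were on in 21 of 21 cases (84.5% of all genes) at a median of -0.53 and a median range of 0.38. The nephrin gene Nphs1 was at -3.19 on WT5, -2.75 on WT2 and -2.44 on wt/flox2. The podocyte factor Tcf21, which also marks stroma, was on at 2.89, 2.75 and 2.79. Col4a3, a collagen of the mature glomerular basement membrane, was dim at -5.79, -6.94 and -6.93. Synpo, the actin-bundling protein of the foot process, had the widest range of the list at 0.76, -0.69 and -0.79. KO7 and KO9 gave 0.76 and -0.87 for it, the same split by slide as the controls.

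Proximal tubule genes were on in 27 of 27 cases (84.5% of all genes) but dim, with a median level of -2.28 and a median percentile of 29.3 among genes that were on. The endocytic receptor Lrp2 stood at 1.85 on WT5, 1.71 on WT2 and 1.56 on wt/flox2 and its partner Cubn at -0.95, -0.54 and -0.86. The lineage factor Hnf4a was at -1.52, -1.40 and -1.62. The phosphate transporter Slc34a1 had -1.23, -0.92 and -1.28, the glucose transporter Slc5a2 -3.70, -2.62 and -2.79, and the sulfate transporter Slc13a1 -5.59, -5.03 and -5.41. Genes for endocytosis and for transport were therefore both called on at this stage, by a call that also took in 28.4% of olfactory receptor genes. WT2 was the highest array for 19 of the 27 genes (27.8% of all genes) and wt/flox2 for none (34.7% of all genes). The median of WT2 minus wt/flox2 was 0.26 (0.24 after quantile normalization and 0.23 after normexp background correction) against -0.02 over all genes. Of the 27, 2 (7.41%), Slc5a2 and the zinc transporter Slc39a5, reached a 2-fold range, beside 9.75% of all genes.

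The loop and distal tubule list was on in 14 of 16 cases (87.5%, near the 84.5% of all genes), at a median of -3.03. The thiazide-sensitive cotransporter Slc12a3 and the calcium-binding Pvalb, both of the distal convoluted tubule, were off, with Slc12a3 at -8.85, -8.45 and -9.02. The loop cotransporter Slc12a1 was on at 0.40 on WT5, -0.64 on WT2 and -0.83 on wt/flox2, and the loop glycoprotein Umod at -3.46, -3.35 and -3.61. Slc12a1 was higher on slide 1 in the Six2Cre knockouts too, at -5.32 on KO7 against -7.33 on KO9. Kidney-specific cadherin, Cdh16, which the tubules share with the ureteric tree, was bright and even at 4.42, 4.69 and 4.77.

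**Figure D3:**
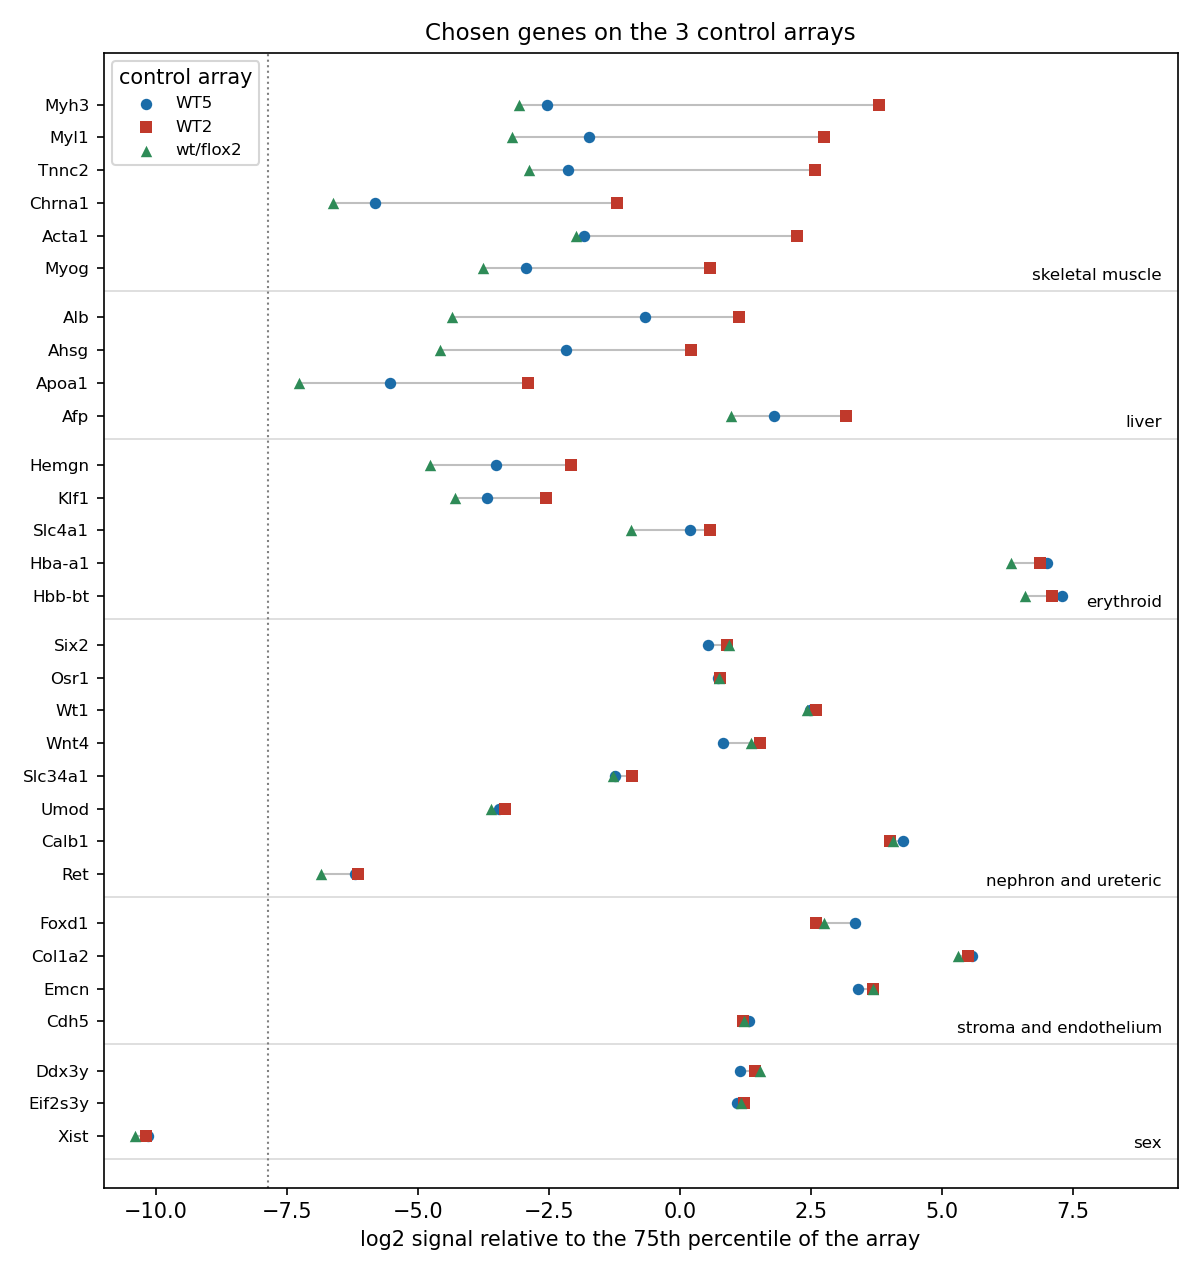
Level of chosen list genes on each of the 3 control arrays (horizontal axis, log2 relative to the 75th percentile; circles WT5, squares WT2, triangles wt/flox2; grey lines join the lowest and highest). Osr1 spans 0.04 and Wt1 0.18, while Myh3 spans 6.87 and Alb 5.48, and Xist lies left of the dotted line at -7.87, the dimmest level called on in WT5.

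The ureteric tip was on in 14 of 14 cases (84.5% of all genes) at a median of -0.39. The receptor Ret, which receives Gdnf, gave a dim probe at -6.20 on WT5, -6.14 on WT2 and -6.85 on wt/flox2, and its co-receptor Gfra1 was at -0.83, -0.60 and -0.15. Wnt11, a tip ligand induced by Ret, had 1.01, 0.78 and 1.05. Etv4, an ETS factor downstream of Ret, was at 0.76 on WT5 and 1.98 on both WT2 and wt/flox2, while its relative Etv5 went the other way at -1.73, -1.89 and -2.10. The feedback inhibitor Dusp6 was steady at 3.78, 3.74 and 3.87, and Spry1, also an inhibitor of that signal, was higher on WT5 at 3.08 than on WT2 at 2.35 and wt/flox2 at 2.11. Targets of 1 receptor thus differed in which array was high.

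The ureteric trunk and collecting duct list was on in 24 of 24 cases (84.5% of all genes), with a median level of -0.37. Calbindin, Calb1, was at 4.26 on WT5, 4.01 on WT2 and 4.06 on wt/flox2, the duct factor Gata3 at 2.02, 2.64 and 2.42, and Hoxb7 at 3.15, 3.39 and 3.42. Wnt9b, the duct signal that induces nephrons, had -0.98, -0.28 and -0.27, and Wnt7b, which orients the medullary duct, -1.82, -1.32 and -1.19. The water channel Aqp2 of principal cells was already on at -2.68, -3.05 and -3.12, and the vasopressin receptor Avpr2 at -3.24, -2.71 and -2.47. Of the intercalated cell genes, the factor Foxi1 had -5.45, -4.03 and -4.54 and the proton pump subunit Atp6v1b1 -4.76, -3.61 and -4.09, both lowest on WT5. WT5 was the lowest array for 15 of the 24 genes, beside 50.8% of all genes.

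Stromal genes gave the highest median of the cell type lists at 2.50, on in 24 of 24 cases, and 3 reached a 2-fold range. The cortical stromal factor Foxd1 was at 3.34 on WT5, 2.59 on WT2 and 2.76 on wt/flox2. The collagen chain Col1a2 stood at 5.57, 5.50 and 5.30 and Col3a1 at 4.93, 4.53 and 4.34. Aldh1a2, which makes retinoic acid, had 4.07, 4.50 and 4.42, and the retinoic acid receptor Rarb 2.38, 2.51 and 2.63. Penk, a marker of medullary stroma, was at 4.26, 4.51 and 4.69. Meis1, a pan-stromal factor, was higher on WT5 at 0.89 than on WT2 at 0.05 and wt/flox2 at 0.20, whereas Meis2 was even at 4.23, 4.36 and 4.39. Dlk1, shared by stroma and immature muscle, was highest on WT2 at 2.98, against 1.77 and 2.28.

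Renin and mural genes were on in 10 of 10 cases (84.5% of all genes) at a median of 1.41. Renin itself, Ren1, was on at 0.93 on WT5, 1.54 on WT2 and 0.66 on wt/flox2, and its companion Akr1b7 at 1.51, 1.96 and 1.57. Acta2, smooth muscle actin, was lower on WT5 at 2.41 than on WT2 at 3.60 and wt/flox2 at 3.49, and the knockouts KO7 and KO9 had 2.49 and 3.43. WT2 was the highest array for 8 of the 10 genes, beside 27.8% of all genes. It was highest for 7 of them after quantile normalization and for 5 after normexp background correction. The skeletal muscle signal of WT2, given below, lies beside these counts, and its part was not tested.

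The endothelial list was on in 24 of 24 cases (84.5% of all genes), at a median level of 0.22 and with a median range of 0.34. The adhesion gene Cdh5 was at 1.32 on WT5, 1.20 on WT2 and 1.23 on wt/flox2, the VEGF receptor Kdr at 2.01, 2.23 and 2.30, and the receptor kinase Tek at 0.14, 0.07 and 0.14. The capillary sialomucin Emcn had 3.40, 3.68 and 3.69. Flt1, the second VEGF receptor, had the widest range of the list at 0.73, -0.06 and 1.30, with WT2 low. The lymphatic factor Prox1 was on but dim at -6.58, -6.28 and -6.76. WT5 was the lowest array for 16 of the 24 genes, beside 50.8% of all genes.

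Among the nephron, ureteric, stromal, vascular and blood lists, the erythroid list had the largest share of genes with a 2-fold range. It was on in 17 of 17 cases (84.5% of all genes), 8 of them (47.1%) with that range beside 9.75% of all genes. The array wt/flox2 was the lowest for 15 of the 17, beside 22.5% of all genes. Adult alpha globin, Hba-a1, stood at 7.02 on WT5, 6.87 on WT2 and 6.32 on wt/flox2, and adult beta globin, Hbb-bt, at 7.29, 7.09 and 6.58. The globin copies are near-identical, so these probes may read several of them. The embryonic globin Hbb-y was also on, at 4.34, 4.35 and 3.67, and the embryonic Hba-x at 2.41, 1.99 and 1.55.

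Genes of the red cell membrane and of its nuclear precursors were mostly lowest on wt/flox2 too. The anion exchanger Slc4a1 was at 0.20 on WT5, 0.57 on WT2 and -0.94 on wt/flox2. The erythroid factor Klf1 had -3.68, -2.55 and -4.29 and the erythroblast gene Hemgn -3.52, -2.09 and -4.77, both highest on WT2. The exceptions were the Epo receptor gene Epor, lowest on WT5 at 0.00 against 0.41 and 0.40, and the transferrin receptor Tfrc, flat at 0.81, 0.73 and 0.73. Both are also expressed outside the red lineage, and whether that bears on their levels here was not tested. The median of WT2 minus wt/flox2 was 0.95 (0.95 after quantile normalization and 0.63 after normexp correction). After normexp correction 5 of the 17 had a 2-fold range, and wt/flox2 was lowest for 16. For Hba-a1 the knockouts KO7, KO9 and CreER/flox5 had 7.17, 7.16 and 7.11, so wt/flox2 was the lowest of the 6 arrays. No source used here gives how much blood each dissected kidney held.

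Macrophage genes were on in 18 of 18 cases (84.5% of all genes), at a median of -1.64, and none reached 2-fold, beside 9.75% of all genes. The adaptor Tyrobp was at -0.77 on WT5, -0.69 on WT2 and -0.72 on wt/flox2, the macrophage receptor Adgre1 at -0.99, -1.01 and -0.86, and the complement gene C1qb at -1.96, -1.24 and -1.17. All 7 platelet genes were on at a median of -3.98, with Pf4 at 0.25, 0.77 and 0.79, and WT5 was lowest for 6 of the 7 (50.8% of all genes). Prg2 and Camp were among the genes that lay farthest below both other controls on wt/flox2. The eosinophil granule gene Prg2 was at -3.34 on WT5, -3.88 on WT2 and -7.05 on wt/flox2, and the cathelicidin gene Camp, at -6.69 and -6.39 on the first 2, was not well above background on wt/flox2, at least 2.69-fold lower. On the 3 knockouts Prg2 had -6.30, -6.82 and -6.87, near wt/flox2.

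Of 15 posterior Hox genes, which carry positional identity along the body, 11 were on (73.3%, beside 84.5% of all genes) and 4 off. None of the 11 reached 2-fold, beside 9.75% of all genes, and their median range was 0.37 beside 0.43. Hoxa11, a metanephric gene, was at 2.76 on WT5, 2.69 on WT2 and 2.80 on wt/flox2, and its partner Hoxd11 at -0.80, -0.72 and -0.66. Hoxa10 had 2.37, 1.97 and 2.02. Off were Hoxa13, Hoxb13, Hoxc12 and Hoxc13, the genes of the most caudal body and the skin appendages, while Hoxd12 at -5.79, -5.96 and -5.82 and Hoxd13 at -5.32, -5.95 and -5.58 were dim but on. The Y-linked genes Ddx3y, Kdm5d, Eif2s3y and Uty were on in all 3 arrays, with Ddx3y at 1.15, 1.44 and 1.52, and Xist, the RNA of the inactive X, was off in all 3.

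Skeletal muscle was the list on which the controls parted most. Of its 29 measured genes 28 were on in all 3 arrays, and WT2 was the highest array for all 28, beside 27.8% of all genes. On WT2, 26 of the 28 were at least 2-fold higher than on both other controls, beside 1.02% of all genes. The median over the 29 measured genes of WT2 minus the mean of WT5 and wt/flox2 was 3.91, or 15.1-fold, beside 0.05 over all named genes. Over the 28 genes on in all 3 arrays, the median of WT5 minus wt/flox2 was 0.16. Genes differed in both directions between these 2 arrays, and the median of their absolute differences was 0.41. These values describe a pattern known before the list was drawn up.

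Embryonic myosin heavy chain, Myh3, stood at -2.54 on WT5, 3.80 on WT2 and -3.07 on wt/flox2. The perinatal chain Myh8 was at -2.85, 2.33 and -3.01, the giant sarcomere protein Ttn at -4.87, -0.02 and -6.08, and skeletal actin, Acta1, at -1.84, 2.23 and -1.99. The knockouts KO7, KO9 and CreER/flox5 had -1.84, -2.45 and -0.60 for Myh3, so WT2 was the highest of all 6 arrays. The program on WT2 reached beyond sarcomere proteins.

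The acetylcholine receptor subunits of fetal muscle were included, with Chrna1 at -5.81 on WT5, -1.19 on WT2 and -6.63 on wt/flox2 and Chrng at -5.07, -1.20 and -4.56. So were the myogenic transcription factors: Myog had -2.93, 0.57 and -3.76 and Myod1 -5.26, -2.34 and -5.52. Myf5, which acts at the start of the lineage, was off in all 3 arrays, at -9.80 on WT2. The ATPase Atp2a1 at -2.60, -2.11 and -2.97 and the intermediate filament Des at -0.57, 0.65 and 0.54 were not 2-fold above both other arrays: Atp2a1 was less than 2-fold above either, and Des less than 2-fold above wt/flox2 but more than 2-fold above WT5. Des is also a gene of smooth muscle and mesangium, and its low array was WT5.

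Muscle genes that were not on the list appeared among the genes farthest above both other controls on WT2. They included Actn2 at -5.48, -0.21 and -5.45, the fast myosin Myh4 at -5.45, -0.47 and -5.34, and the myogenic cofactor Vgll2, 30.4-fold higher on WT2 than on WT5 and not well above background on wt/flox2. Atp1b4 and Abra were well above background on WT2 alone, at least 23.9-fold and at least 17.2-fold higher. The genes farthest above on WT2 were not all muscle genes. Olfactory receptor genes were among them, with Olfr131 at -3.97, Olfr16 at -4.52 and Olfr1512 at -4.20 on WT2. None of these receptors was well above background on WT5 or wt/flox2. The genes of widest range over the controls were led by Myh3, Ttn and Myl1 and also held Casq2, Myl3, Serpina6 and Alb. Myh3 was the widest of all, at 117-fold. Of 7 measured cartilage genes, the 5 that were on in all 3 arrays did not share the pattern. Col2a1 was at 2.25 on WT5, 1.42 on WT2 and 1.28 on wt/flox2, and none of the 5 was highest on WT2. After quantile normalization 1 of the 5 was highest on WT2, and 1 after normexp correction. WT5 and wt/flox2 kept muscle genes well above background, and without WT2, 4 of the 28 reached a 2-fold range. What tissue the muscle RNA came from was not tested.

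**Figure D4:**
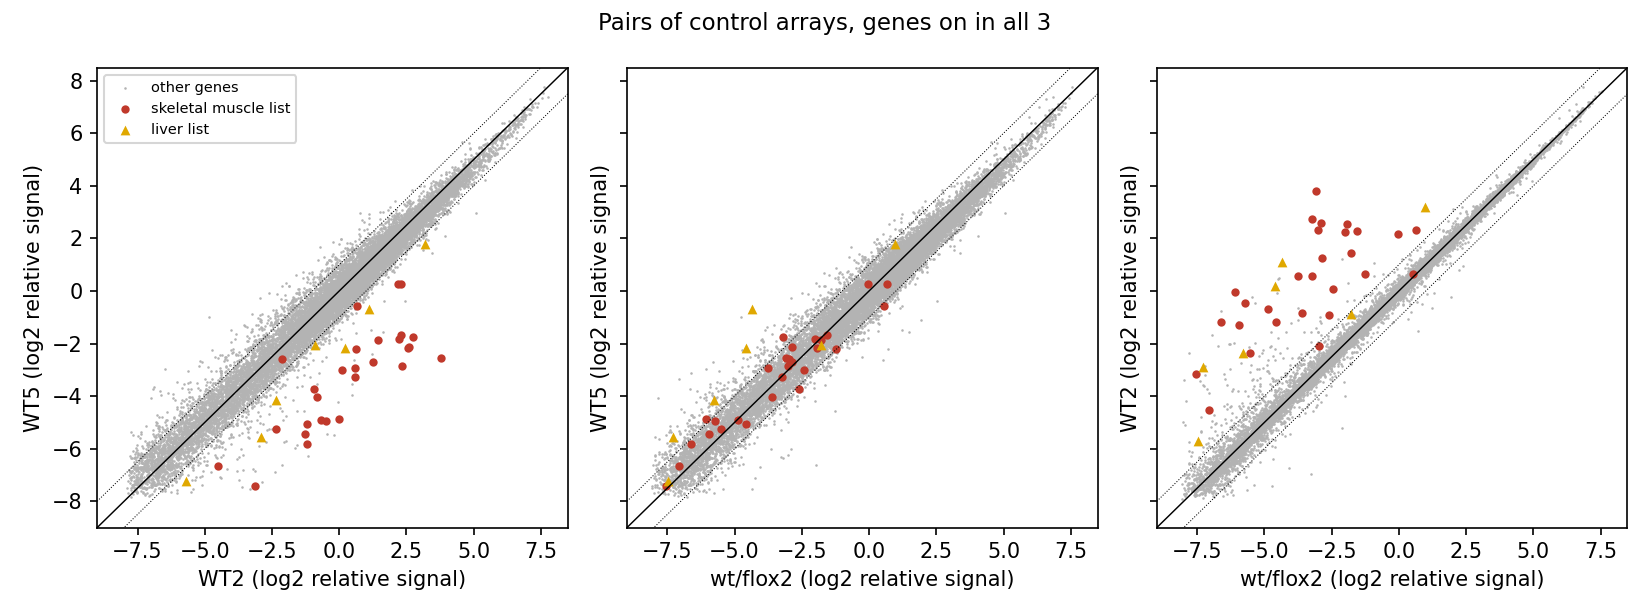
Level of the 14563 genes on in all 3 controls on each pair of control arrays (both axes log2 relative to the 75th percentile; solid line equality, dotted lines 2-fold). Muscle list genes (red) leave the diagonal in both panels with WT2 and lie along it in the panel of WT5 against wt/flox2, and the median absolute difference of all genes is 0.10 in the panel of WT2 against wt/flox2 and 0.35 in the other panels.

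Muscle promoters are shown because the members of this list that were on were all highest on the same array and because myogenic factors bind E-boxes, the letters CANNTG, of which CAGCTG is a form favoured by MyoD. The sequences are the 250 bases before the start site from RefSeq, build GRCm38.p6, written 5′ to 3′ on the gene's strand with every CANNTG in capitals. They lie at chr2:73580339-73580588, minus strand (Chrna1), chr1:87205561-87205810, plus strand (Chrng), chr1:66945057-66945306, minus strand (Myl1) and chr1:134289754-134290003, plus strand (Myog).
Chrna1: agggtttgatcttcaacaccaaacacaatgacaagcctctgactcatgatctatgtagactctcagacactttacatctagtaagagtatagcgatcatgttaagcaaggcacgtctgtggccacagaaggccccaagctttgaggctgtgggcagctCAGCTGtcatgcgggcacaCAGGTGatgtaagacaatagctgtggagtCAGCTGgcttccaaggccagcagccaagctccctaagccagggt
Chrng: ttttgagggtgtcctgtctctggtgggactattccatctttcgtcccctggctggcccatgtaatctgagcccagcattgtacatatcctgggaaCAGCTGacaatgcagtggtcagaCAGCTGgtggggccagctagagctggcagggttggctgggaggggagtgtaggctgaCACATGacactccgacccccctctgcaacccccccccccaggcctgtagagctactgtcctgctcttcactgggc
Myl1: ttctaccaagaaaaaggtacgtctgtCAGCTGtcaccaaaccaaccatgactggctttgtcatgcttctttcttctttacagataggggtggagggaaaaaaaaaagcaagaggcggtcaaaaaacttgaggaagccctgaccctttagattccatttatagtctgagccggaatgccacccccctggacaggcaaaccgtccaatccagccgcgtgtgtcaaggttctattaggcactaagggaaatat
Myog: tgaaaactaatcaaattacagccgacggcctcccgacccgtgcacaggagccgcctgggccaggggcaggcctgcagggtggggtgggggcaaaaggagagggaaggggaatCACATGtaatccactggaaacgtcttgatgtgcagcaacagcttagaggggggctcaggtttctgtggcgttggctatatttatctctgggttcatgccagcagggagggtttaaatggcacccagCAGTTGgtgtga
Chrna1 and Chrng each hold 2 CAGCTG letters, Myl1 holds 1, and Myog holds E-boxes of other letters. RefSeq promoters were found for 24 of the muscle genes, with 27 start sites. CAGCTG, which reads the same on both strands, was in 13 of the 27 (48.15%), and in 13.0% of 32851 promoters of all genes. CANNTG, which includes it and is also its own reverse complement, was in 23 of the 27 (85.19%) and in 66.22% of all promoters. A match describes the letters of the window and shows no binding.

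Liver genes were the other list that parted the controls. Of 8 measured, 7 were on in all 3, all 7 had a 2-fold range (9.75% of all genes), and all 7 were highest on WT2 (27.8% of all genes). After normexp correction 5 of the 7 kept a 2-fold range, all but Fga and Fgb, all 7 were still highest on WT2, and the list's median range was 2.23 in place of 3.44. The array wt/flox2 was lowest for 6 of the 7, beside 22.5% of all genes. The median of WT5 minus wt/flox2 was 1.62, and 0.70 after normexp correction. Albumin, Alb, stood at -0.68 on WT5, 1.12 on WT2 and -4.36 on wt/flox2. The carrier Ahsg was at -2.18, 0.20 and -4.59 and the apolipoprotein Apoa1 at -5.54, -2.89 and -7.28. Alpha-fetoprotein, Afp, the main fetal serum protein, was bright on all 3 at 1.80, 3.18 and 0.97. Serpina6, the liver-made corticosteroid carrier, had -3.14, -0.75 and -6.62. Ttr was well above background on 1 array.

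The erythroid genes Klf1 and Hemgn had the same order of arrays as albumin: WT2, then WT5, then wt/flox2. Most of the erythroid list did not. Of its 17 genes, 9 were highest on WT5, among them Hba-a1, Hbb-bt and Hba-x, and 8 on WT2, beside 37.4% and 27.8% of all genes. The fetal liver is where red cells form at this stage. Whether liver RNA had a part in the erythroid difference was not tested. Leaving WT2 out, 4 of the 7 liver genes kept a 2-fold range.

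**Figure D5:**
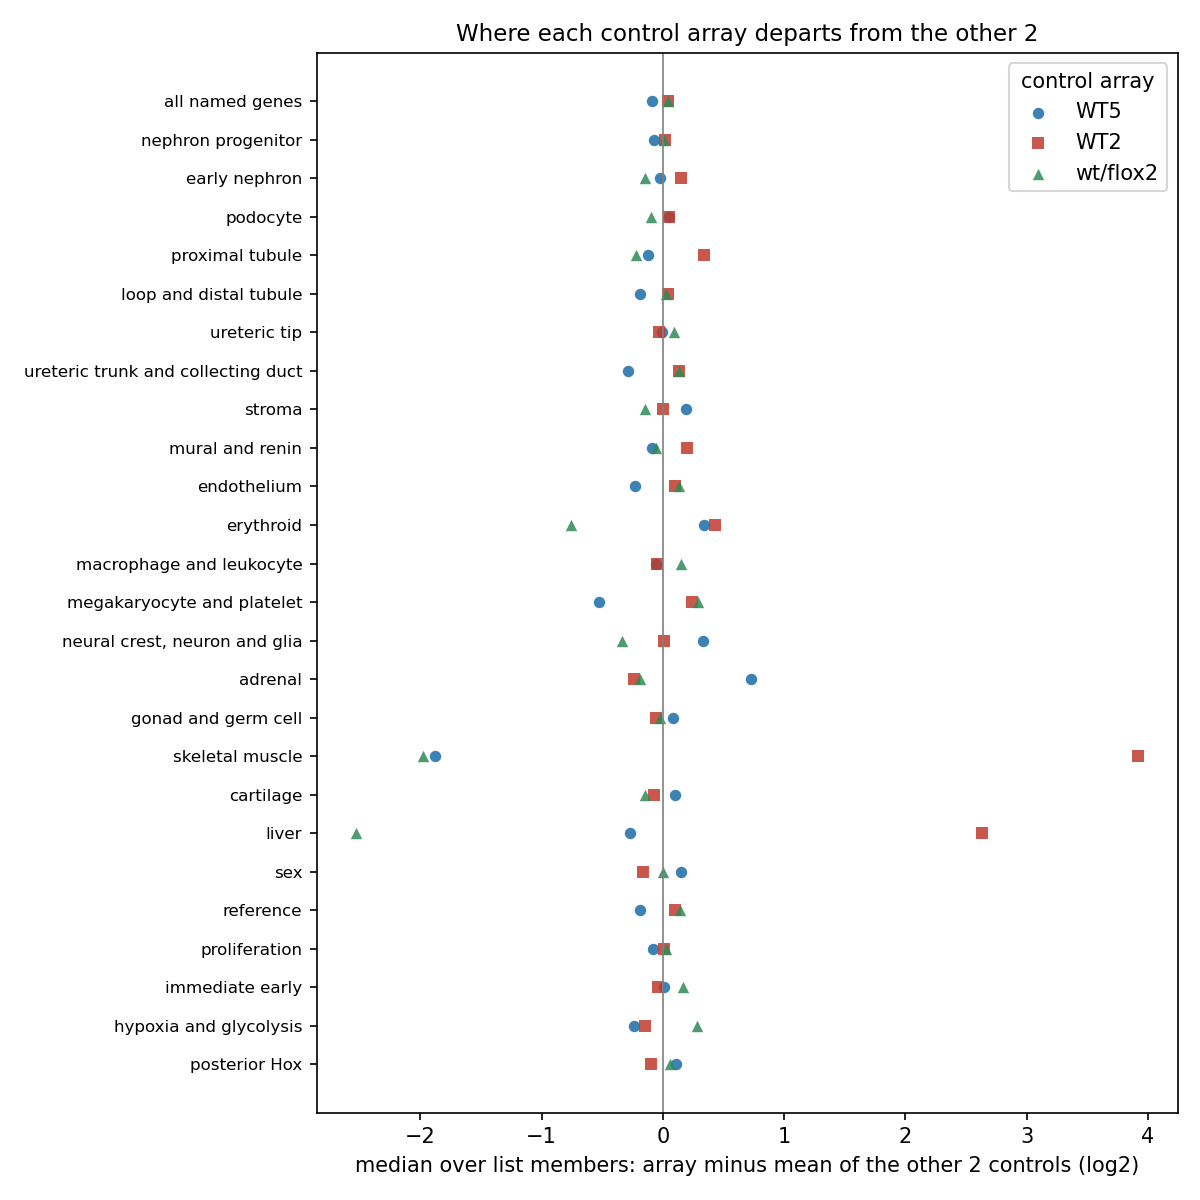
For each list, the median over its genes of 1 control array minus the mean of the other controls (horizontal axis, log2; circles WT5, squares WT2, triangles wt/flox2). Over the genes on in all 3 arrays, the muscle list lies at 3.92 on WT2, the liver list at 2.63 on WT2 and -2.53 on wt/flox2, and the erythroid list at -0.76 on wt/flox2, whereas the nephron progenitor list lies between -0.07 and 0.02.

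Lists of neural, adrenal and gonadal genes were measured as well, and the source of their signal was not tested. The neural list was on in 18 of 19 cases at a median of -3.38, and wt/flox2 was lowest for 12 of the 18, beside 22.5% of all genes. Tyrosine hydroxylase, Th, was at -5.34 on WT5, -5.78 on WT2 and -7.08 on wt/flox2, and chromogranin A, Chga, at -2.81, -3.44 and -4.19. All 8 adrenal genes were on at a median of -4.39, and 6 of 8 were highest on WT5, beside 37.4% of all genes. The steroid enzyme Hsd3b1 stood at -2.69 on WT5, -5.11 on WT2 and -5.81 on wt/flox2, and the adrenal and gonadal factor Nr5a1 at -3.51, -4.63 and -4.59. Of 10 gonad and germ cell genes 6 were on and Dppa3, Sry and Mael were off. Gata4, a factor of gonad and heart, was at -6.03 on WT5, -4.24 on WT2 and -2.89 on wt/flox2. Its level was also lower on slide 1 in the Six2Cre knockouts, at -6.02 on KO7 and -4.55 on KO9.

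Genes often used to normalise were not all steady. Of 11 reference genes on in all 3, the GAPDH gene Gapdh was at 5.60 on WT5, 6.23 on WT2 and 6.38 on wt/flox2, and Actb at -0.66, 0.71 and 1.15. KO7 and KO9 gave -0.89 and 1.22 for Actb. Gusb at 1.72, 1.58 and 1.62 and B2m at 2.08, 2.11 and 1.94 were steadier. The TATA-binding protein gene Tbp was high on WT5 at -0.37, against -1.39 and -1.32, so reference genes moved in both directions. The listed immediate early genes, which respond to handling, were on in 12 of 12 cases and none reached 2-fold. After quantile normalization 1 of the 12 did, and 1 after normexp correction. Egr3, which was not on the list, was well above background on wt/flox2 alone and is given below. Egr1 had 0.91, 0.83 and -0.07 and Fos -4.24, -5.10 and -5.09. Of 11 hypoxia and glycolysis genes, 9 were highest on wt/flox2 beside 34.7% of all genes, with Ldha at 5.69, 6.06 and 6.26. Ankrd37, at -0.13, 0.17 and 0.96, was the one with a 2-fold range.

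Single genes stood apart on 1 array without a shared list. Few did so on slide 2 apart from the high genes of WT2. Of the 14563 genes on in all 3 controls, 12 (0.0824%) were at least 2-fold lower on WT2 than on both other controls. By the same margin 24 (0.165%) were higher and 50 (0.343%) lower on wt/flox2. Of the 15356 genes on in at least 1 control, these counts were 45 (0.293%), 93 (0.606%) and 90 (0.586%). Some of the genes named next were not on in all 3 controls. The nucleolar gene Imp4 was at -2.80 on WT2 and -2.75 on wt/flox2 and not well above background on WT5, at least 33.5-fold lower. It was also -9.57 on KO9 and -3.76 on KO7, so its low arrays did not follow the slide. The zinc finger gene Zfp874a was low on WT5 at -6.62 against -2.15 and -1.99, and on KO7 at -6.08 against -1.93 on KO9, which did follow it. The sodium-proton exchanger Slc9a4 was well above background on WT5 alone, at least 27.1-fold higher, and KO7 had the same level of -3.14. Ccnb1ip1, a gene of meiotic recombination, was low on WT2 at -5.21 against -2.86 on WT5 and -2.12 on wt/flox2, and between -5.08 and -4.80 on the 3 knockouts. Ferd3l and Egr3 were well above background on wt/flox2 alone, at least 8.28-fold and at least 11.3-fold higher.

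The lines of the controls were compared in 1 limma fit of the 4 groups of all 6 arrays, in which the lone CreER control was taken to vary like the Six2Cre groups. The error of that fit came only from WT5 against WT2 and KO7 against KO9, each a pair across the slides. With slide inside the error and 1 array for the CreER control, an absence of calls does not show that the lines are alike. Of 26939 features 0 were higher (0%) and 0 lower (0%) on wt/flox2 than on WT5 and WT2 at an adjusted p of 0.05 with Benjamini-Hochberg adjustment. Unadjusted p-values serve below only to choose which genes are named, and are not read as differences between the lines. Among the named genes of lowest p that were well above background on all 3 controls, Alb lay lower on wt/flox2 at -4.58 (SE 0.85) and Prg2 at -3.44 (SE 0.42), both with an adjusted p of 1 in limma. On the other side lay Tcl1b5 at 3.38 (SE 0.81) and Ly6m at 2.64 (SE 0.30), again with an adjusted p of 1. Camp and Ear6 were not well above background on wt/flox2, where they were at least 2.69-fold and at least 2.11-fold lower than on either other control. Serpina3n was well above background on wt/flox2 alone, at least 1.76-fold higher. Within slide 2, where only WT2 stands against wt/flox2, Ly6m differed by 2.66 and Prg2 by -3.18. With slide fitted as a block, Ly6m differed by 2.70 and Prg2 by -3.18, in a fit with 1 residual degree of freedom.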

How the data were processed

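The authors labelled 0.25 ug of total RNA per kidney sample with Cy3, per the labels, and hybridised it to 1 one-colour Agilent array each. Per the file headers, Feature Extraction gave the deposited processed signal, a linear intensity from which the background had been subtracted and spatial trends removed array by array, with no scaling across arrays. The log2 of this deposited intensity minus the array's 75th percentile was computed here. Outlier probes and control spots were left out, repeated spots averaged, and 24999 probes took the names of 17235 genes through RefSeq accessions (GRCm38.p6), while 15988 were unnamed. The probe of highest mean signal over 6 arrays represented a gene; of 6003 genes with several probes, 297 had one on in all 3 controls and another on in none. A fold against a group not well above background is a lower bound, taken from the dimmest signal well above background on each array, and written "at least". Spread is described with no test.

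Line was tested with limma 3.58.1 (R 4.3.3, data.table version 1.17.8; lmFit, eBayes, two-sided) over features well above background on at least 2 arrays. In the main fit the error behind the limma p-values came from the Six2Cre pairs, WT5 with WT2 and KO7 with KO9. It does not measure the spread of the CreER control, which has 1 array. Figures used matplotlib 3.10.9 in Python 3.11.15 with pandas 2.3.3 and numpy 2.4.6. Alternatives were quantile normalization, normexp (offset 50), other detection calls, filters and probes, and leaving out arrays. The members, gene lists and tests were chosen with earlier results of these data known. Named genes are list members, the 15 brightest, the 10 farthest above or below on each array, the 15 of widest range and the 10 of lowest limma p in each direction. List genes without a matched probe were not analysed here, and a few measured members are not reported here. The number of arrays limits the precision.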

Additional observations from a re-analysis of the deposited data

How the results depend on the processing

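The count of genes on in all 3 controls, 14563, ranged from 14519 to 15663 over the other detection call and probe choices, and from 14603 to 14752 with 1 array left out. The count with a range of at least 2-fold, 1420, was 1437 after quantile normalization, 1483 with the median probe and 1929 with genes on in at least 1 control, but 875 after normexp background correction. With 1 array left out it lay between 280, without WT5, and 1043, without wt/flox2; 945 remained without WT2. A range over 2 arrays cannot exceed that over 3. The muscle median on WT2, 3.91, was 3.93 after quantile normalization, 3.82 with the median probe and 3.21 after normexp correction; it lay between 3.87 and 3.88 without either other control and cannot be formed without WT2. Of 385 list genes, the range moved by more than the SD between controls in 39 after quantile normalization and in 54 after normexp. List medians of WT5 minus WT2 near 0 changed sign with the normalization, such as proliferation, at -0.06, and 0.03 after quantile normalization, and are not read as directions. The limma comparison of lines gave 0 calls in each alternative run, with a lowest adjusted p between 0.144 and 1. No paired analysis was possible, because no label used here pairs the control arrays and the replicate numbers are only digits of the titles. Signal over background limits the dim genes: the median range in the dimmest quintile was 0.59.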
